A study of Saccharomyces cerevisiae with 109 samples.

Results

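The transcripts described here come from 10 histone genes of Saccharomyces cerevisiae, chosen by name among the 6297 genes of the table. The core histones have 8 of these genes. HTA1 (YDR225W) and HTA2 (YBL003C) encode H2A, HTB1 (YDR224C) and HTB2 (YBL002W) encode H2B, HHT1 (YBR010W) and HHT2 (YNL031C) encode H3, and HHF1 (YBR009C) and HHF2 (YNL030W) encode H4. HTZ1 (YOL012C) encodes the H2A variant H2A.Z, which the SWR1 remodeller places at promoters, and HHO1 (YPL127C) encodes the linker histone. HTA1, HTA2 and HTB2 were measured on all 109 arrays, HTB1 on 107, HHT1 and HTZ1 on 108, HHF1 on 106, HHF2 on 105, HHO1 on 99 and HHT2 on 90.

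In yeast the core histone genes lie as divergent pairs that share a promoter, HTA1 with HTB1, HTA2 with HTB2, HHT1 with HHF1 and HHT2 with HHF2. Their transcripts accumulate as cells replicate their DNA, because Spt10 and Spt21 activate the promoters in S phase, and the HIR complex with Asf1 and Rtt106 holds most of them down outside it. Histone transcripts are therefore known as markers of S phase as well as the source of new nucleosomes. HTZ1 and HHO1 have promoters of their own.

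RNA was compared on 2-colour arrays. On most of them, RNA of treated cells was set against RNA of untreated cells of the same strain, and a value is the log2 ratio of treated over untreated, with the mean of each array near 0. The strains derived from BY4741 (Mat a his3Δ1 leu2Δ0 met15Δ0 ura3Δ0) were rpd3Δ, which lacks the histone deacetylase Rpd3, pho23Δ and rco1Δ, which lack a subunit of the large and of the small Rpd3 complex, ume6Δ, msn2Δmsn4Δ, msn2Δmsn4Δrpd3Δ and wild type. The H4KQ strain (RMY491) and its parent type NSY429 lack both chromosomal H3-H4 loci per the study's strain list, live on a plasmid with 1 H3-H4 pair, and grew in medium without tryptophan. In H4KQ 4 amino-terminal lysines of H4 are changed to glutamine. Treatments were 0.4 mM H2O2 at 30°C (a 10 to 60 min time course for rpd3Δ, pho23Δ, rco1Δ and wild type, and 30 min samples for all strains), a shift from 25 to 37°C, 0.75 M NaCl (0.7 M in the sample descriptions) and a shift from 37 to 25°C, the last 3 for rpd3Δ and wild type only. In the second heat shock course the labels give 30°C for the untreated rpd3Δ cells and 25°C for wild type. On 3 arrays untreated rpd3Δ cells were set against untreated wild type. On 6 arrays wild type was heat-shocked with 10 µM trichostatin A (TSA), a deacetylase inhibitor, or with its solvent DMSO, and 5 arrays came from rpd3Δ cells with a plasmid, grown without leucine. The methods give rpd3Δ a slower growth than wild type.

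Between 4288 and 6115 genes were measured per array. RPD3 was measured on 1 of 3 rpd3Δ arrays at 30 min of H2O2, at -1.79, against -0.09 to 0.46 on the 8 wild-type arrays, and UME6 on none of the ume6Δ arrays. The MSN4 row gave 0.44 to 1.52 in msn2Δmsn4Δ, and RPD3 gave -0.38 and 0.11 on 2 msn2Δmsn4Δrpd3Δ arrays, but a ratio of treated to untreated cells of 1 strain does not check a deletion. Untreated rpd3Δ over wild type gave -2.56 for RPD3 on the 1 array that measured it. At 30 min of H2O2, array 4 of ume6Δ had the narrowest spread over all genes, an SD of 0.64 on the log2 scale, against 0.99 to 1.44 on the wild-type arrays. It stands apart for the histones as well.

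The 2 genes of each core histone encode nearly the same coding sequence, and the rows of such a pair gave close values for H2A, H2B and H4 over all arrays, but less so for H3. Across the arrays with both measured, Pearson's r was 0.956 for HTA1 with HTA2, 0.938 for HTB1 with HTB2 and 0.959 for HHF1 with HHF2, with median absolute differences of 0.14, 0.10 and 0.12. HHT1 and HHT2, which have the most missing values, had r = 0.717 over 90 arrays and a median absolute difference of 0.21, with single differences between -1.76 and 2.2, and HHT1 followed HHF2 more closely (r = 0.884). On the heat shock arrays of rpd3Δ and wild type alone, r was 0.356 for HHT1 with HHT2 and 0.491 for HTB1 with HTB2. For divergent partners that share a promoter but not a sequence, r was 0.944 for HTA1 with HTB1 and 0.897 for HTA2 with HTB2. It was 0.849 for HHT1 with HHF1 and 0.733 for HHT2 with HHF2. The values of these pairs lay a median of 0.38, 0.42, 0.53 and 0.52 apart. H2A and H2B genes without a shared promoter were as close, with r = 0.943 for HTA2 with HTB1 and 0.922 for HTA1 with HTB2. In H4KQ and NSY429, which have neither chromosomal copy and whose plasmids carry no HHF2, the HHF2 row still lay within 0.22 of the HHF1 row on each of 6 arrays. As these strains carry no HHF2, that row does not read HHF2 there. How far a row also reads the other gene of its histone in the other strains was not tested. A count of core genes may therefore hold 2 readings of 1 transcript. These correlations run over arrays that share treatments, and no test was made of them.

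Core histone transcripts fell in wild type after 30 min of H2O2, from 2.52-fold for HHT2 to 6.32-fold for HTA1. In order of the means, H2A came lowest, then H4, H2B and H3. HTZ1 fell 1.65-fold, and HHO1 did not pass the test. Of the 10 genes 9 were called lower by limma at an adjusted p under 0.01, where 68.4% of the 5212 genes tested were called, 34.1% as lower. With so many genes called, a count of members carries little.

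For HTA1 the 8 wild-type arrays gave -2.92, -2.65, -2.15, -2.85, -3.04, -2.67, -3.18 and -1.82. All lie far below 0, and arrays 3 and 8 are the least negative. The mean was -2.66 ± 0.46 (SD, n = 8), a 6.32-fold decrease, with an adjusted p of 7.79e-11, and only 1.52% of the genes tested had a change as low. HTA2, the other H2A gene, averaged -2.62 ± 0.55 (SD, n = 8), and HTB2 and HTB1, for H2B, averaged -2.10 ± 0.44 (SD, n = 8) and -2.05 ± 0.33 (SD, n = 7). The H4 gene HHF1 was at -2.27, -2.54, -1.58, -2.48, -2.48, -2.09, -2.92 and -2.15, again with array 3 the least negative. It averaged -2.31 ± 0.39 (SD, n = 8), beside -2.29 ± 0.46 (SD, n = 7) for HHF2. The H3 gene HHT1 was at -1.35, -1.30, -1.45, -1.14, -1.49, -1.38, -1.66 and -1.19, all above the highest HTA1 value. It averaged -1.37 ± 0.17 (SD, n = 8), a 2.58-fold decrease, and HHT2 averaged -1.33 ± 0.13 (SD, n = 6).

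HTZ1, the H2A.Z gene, had the tightest values of all, -0.70, -0.63, -0.66, -0.64, -0.81, -0.70, -0.81 and -0.81, and averaged -0.72 ± 0.08 (SD, n = 8), with an adjusted p of 1.62e-08. HHO1 gave -0.10, -0.39, -0.02, -0.16, -0.01, 0.22, -0.40 and -0.69, on both sides of 0, with a mean of -0.19 ± 0.29 (SD, n = 8) and an adjusted p of 0.0678. In bulk cells a lower histone ratio may stand for fewer cells in S phase or for less RNA per cell, which cannot be told apart.

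The order of the 10 genes by their mean was HTA1, HTA2, HHF1, HHF2, HTB2, HTB1, HHT1, HHT2, HTZ1 and HHO1. Each gene was set against the next within the same arrays with a two-sided exact sign-flip permutation test, 9 comparisons in all. The order was taken from these same arrays, so the pairs and their direction were not set beforehand and the p-values do not allow for that. At 3 steps the sign was the same on every array. HTB1 minus HHT1 was -0.69, below 0 on 7 of 7 arrays (exact p = 0.0156, adjusted p = 0.0703). HHT2 minus HTZ1 was -0.62, below 0 on 6 of 6 (exact p = 0.0312, adjusted p = 0.0938), and HTZ1 minus HHO1 was -0.53, below 0 on 8 of 8 (exact p = 0.00781, adjusted p = 0.0703). Those exact p-values are the smallest that 7, 6 and 8 arrays allow, and no step passed 0.05 after adjustment. The differences of the other 6 neighbours lay within their spread, with adjusted p from 0.229 to 0.984.

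Genes with other roles in the cell cycle and in histone supply were read from lists for the same wild-type fit. Of the G2/M genes tested, 9 of 9 fell, with a median of -1.61, among them CLB2 at -2.05, a mitotic cyclin, and SWI5 at -1.51, a mitotic transcription factor. Of the M/G1 genes 7 of 8 fell, with a median of -1.17. Of the G1/S genes 8 of 11 fell and 1 rose, with a median of -0.86. CLN1, a G1 cyclin, was at -2.08, POL30, the replication clamp, at -0.95, and RFA1, of the single-strand binding complex, rose by 1.05. The median over all genes was 0.01. Among the regulators of histone genes, 4 of 11 fell and 3 rose, a share near the 68.4% of all genes called. HIR1, HIR2 and HIR3, subunits of the HIR repressor, were at -0.41, -0.56 and -0.70 and RTT106 at -0.63, while SPT21, an activator, was at 0.56, ASF1 at 0.50 and YTA7 at 0.59. Of the histone chaperones 1 of 11 rose, POB3, a subunit of FACT, and 2 fell, SPT6 and VPS75, with a median of 0.01. The part of cell cycle position in the histone values was not tested.

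Over the H2O2 time course the core transcripts of rpd3Δ and wild type were below 0 from 10 min on. HTA1 in rpd3Δ was at -0.55, -2.20, -3.16, -3.12 and -2.93 at 10, 20, 30, 40 and 60 min, and in wild type at -0.62, -2.16, -2.92, -2.68 and -2.41. HTB2 in rpd3Δ was at -0.35, -1.84, -2.53, -2.46 and -2.16, and in wild type at -0.34, -1.68, -2.12, -1.70 and -1.35. The strains were close at 10 min, and the gap between them was widest at 60 min for both genes. HTB2 was lower in rpd3Δ at 5 of 5 times and the mean of the core genes at 4 of 5. The differences in that mean were 0.06, -0.17, -0.33, -0.52 and -0.18 in order of time. HHF2 was missing in wild type at 60 min, so the mean covers fewer genes there. The share of all genes lower at every time was not counted. The courses have 1 array per strain and time, so no test was made of them. HTZ1 ran the other way late, at -0.61 in rpd3Δ and -1.34 in wild type at 60 min. In rco1Δ the core mean stood at 0.41 at 10 min and -0.18 at 20 min, where wild type was at -0.56 and -1.84. At 40 min it was at -1.86, and wild type at -1.85. In pho23Δ the core mean was at -0.13 and -1.41 at 10 and 20 min. HHT2 was not measured in these 2 courses, so their core means cover fewer genes than that of wild type. Both courses have the opposite dye orientation to the wild-type course, so strain and dye cannot be told apart.

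The core histone genes averaged -2.55 ± 0.18 in rpd3Δ (SD, n = 3) and -2.10 ± 0.31 in wild type (SD, n = 8) at 30 min of H2O2. Each array mean covers the core genes measured on that array, and some arrays of both strains lack values. For single genes rpd3Δ minus wild type was between -0.84 and -0.25 for the 8 core genes, but limma called none of the 10 histone genes at an adjusted p under 0.05. In that comparison 24.3% of 5212 genes were called. At an unadjusted p under 0.05 there were 2 histone genes, HHT2 and HHO1.

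HTA1 was at -3.16, -3.10 and -3.08 on the rpd3Δ arrays, inside the wild-type range of -3.18 to -1.82 at its low end. HTA2 was at -3.33, -2.996 and -4.04, with 2 arrays below all wild-type arrays, whose lowest was -3.23. The difference was -0.84 ± 0.46 (SE), with an adjusted p of 0.201. HHT2 was at -1.77, -1.71 and -2.25 in rpd3Δ, and its 6 wild-type values of -1.51 to -1.14 all lay above them. It differed by -0.57 ± 0.23 (SE), with an adjusted p of 0.0788, and it was the 1 histone gene whose arrays did not overlap between the strains with rpd3Δ below. Over all genes 10.1% had that pattern. HHO1 was at -0.58, -0.54 and -0.67 in rpd3Δ, within the wild-type range of -0.69 to 0.22, and differed by -0.40 ± 0.18 (SE, adjusted p = 0.112). HTZ1 was at -0.48, -0.36 and -0.80, with a difference of 0.17 ± 0.15 (SE).

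The calls depend on how the arrays are scaled. The SD of all log2 values was 0.85 to 1.03 on the rpd3Δ arrays and 0.99 to 1.44 on the wild-type arrays. With every array brought to one median absolute deviation (MAD), 9 of the 10 genes were called lower in rpd3Δ by limma, all but HTZ1. HTA1 was at -1.20 (adjusted p = 0.00682), against -0.45 as deposited, and HHT2 at -0.96 (adjusted p = 0.00126). At that scaling 22.9% of all genes were called, 9.42% as lower. The scaling sets all spreads equal, so it stretches arrays of narrow spread. Strongly lowered genes then read lower in rpd3Δ. The gene lists were read in the deposited scale only, where no histone gene was called. There, 5 of 11 G1/S genes and 4 of 9 G2/M genes were called higher in rpd3Δ than in wild type and none lower. Over all genes 24.3% were called in either direction. Examples were CDC45, a replication factor, higher by 0.79 and SWI5 by 1.13, and the list medians were 0.50 and 0.38. Of the regulators 3 of 11 were called, HIR1 and HIR3 higher, by 0.85 and 0.71, and SWI4, a G1/S activator, lower, with a difference of -1.63. Of the chaperones 2 of 11 were called, CAC2 and VPS75, higher by 0.86 and 0.56. Both counts are near the 24.3% of all genes. Of the M/G1 genes none of 8 was called, with a median of -0.11. The part of these shifts in the histone values was not tested.

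**Figure D1:**
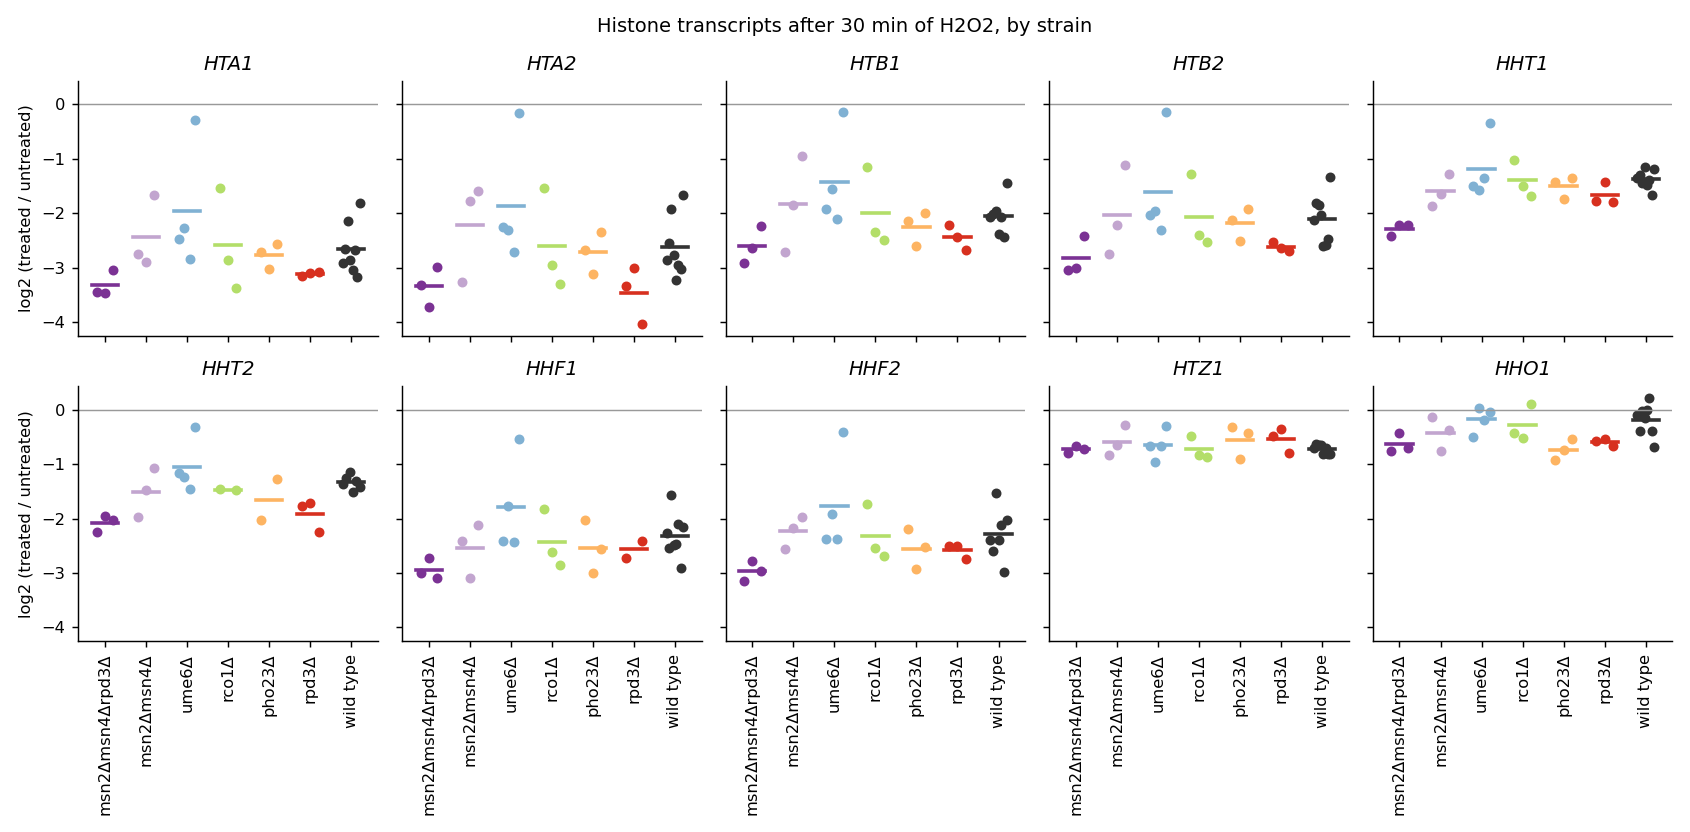
Log2 ratios of treated over untreated cells at 30 min of 0.4 mM H2O2 for the 10 histone genes, 1 panel per gene, with the 7 BY4741 strains along the x axis, a point per array and a bar at the mean. Core values lie below 0 on every array of these strains, array 4 of ume6Δ lies nearest 0 for each core gene, and HTZ1 and HHO1 stay above -1.

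In pho23Δ, HTA1 was at -2.72, -3.03 and -2.57 and HHF1 at -2.03, -3.01 and -2.57, all within the wild-type ranges but for the HHF1 value of array 2. HHO1 was at -0.93, -0.75 and -0.54 in pho23Δ, 2 of 3 arrays below all wild-type values, and differed from wild type by -0.54 ± 0.18 (SE), with an adjusted p of 0.0383 by limma. It was the 1 of 10 genes called, where 18.3% of the 5211 genes tested were called, 8.5% as lower. That call is not stable. With the replicate number as a block, which the arrays of these 2 strains share, the adjusted p was 0.0801, and it was lost when pho23Δ array 1 (adjusted p = 0.196) or array 2 (0.111) or wild-type array 1, 3, 4, 5 or 6 (0.0528 to 0.0678) was left out. In rco1Δ, which lacks a subunit of the small complex, none of the 10 was called, with 0.441% of all genes called and adjusted p from 0.916 upwards. HTA1 was at -1.53, -2.86 and -3.37 there, and array 1, from the time course, was the least negative for every core gene it measured. No histone gene passed an unadjusted p of 0.05 in rco1Δ, in ume6Δ or in msn2Δmsn4Δ, where 0.71% and 4.86% of all genes were called in the last 2.

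In ume6Δ, which lacks the DNA-binding repressor that recruits Rpd3, HTA1 was at -2.48, -2.27 and -2.84 on 3 arrays and at -0.28 on array 4. The other genes split the same way. HTB2 was at -2.03, -1.96 and -2.31, against -0.14 on array 4, and the mean of the core genes lay between -2.20 and -1.82 on 3 arrays, with -0.29 on array 4. The difference from wild type, 0.69 ± 0.37 (SE) for HTA1, rests on that array: with it and rco1Δ array 1 left out of the fit, the difference was 0.13, with an adjusted p of 0.937.

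In cells without Msn2 and Msn4, the activators of the general stress response, HTA1 was at -2.76, -2.90 and -1.66. Removing RPD3 from these cells gave -3.45, -3.47 and -3.05, all below the 3 values of msn2Δmsn4Δ. All 10 histone genes averaged lower in msn2Δmsn4Δrpd3Δ than in msn2Δmsn4Δ, the 8 core genes with a median of -0.75, while the median of all genes was -0.04. None was called, however, while 9.39% of 5207 genes were, and HHT1 and HHT2 had an unadjusted p under 0.05. HHT1 was at -2.42, -2.22 and -2.22 in msn2Δmsn4Δrpd3Δ, against -1.87, -1.65 and -1.28 in msn2Δmsn4Δ, a difference of -0.69 ± 0.25 (SE) with an adjusted p of 0.0849. HTA1, HHT1 and HHF2 were the 3 genes whose arrays lay below without overlap, a pattern held by 13.7% of all genes. Scaled to one MAD, 8 genes were called, all the core genes, lower and with adjusted p from 0.000612 to 0.0143, where 12% of all genes were called at that scaling, 4.88% as lower. The array SDs were 0.76 to 0.97 in msn2Δmsn4Δrpd3Δ and 1.01 to 1.18 in msn2Δmsn4Δ, so the scaling stretches the former here too. With ume6Δ array 4 and rco1Δ array 1 out of the shared fit, HHT1 was called as well, with an adjusted p of 0.0107. Set against rpd3Δ, HHT1 in msn2Δmsn4Δrpd3Δ differed by -0.63 ± 0.25 (SE, adjusted p = 0.429), and no histone gene was called among the 0.269% of genes that were. The difference between the effects of losing RPD3 with and without MSN2 and MSN4 was -0.43 ± 0.64 (SE) for HTA1. By this interaction term limma called 0 of 5207 genes, 206 had an unadjusted p under 0.05, none of them a histone gene, and other settings called 0 to 4 genes.

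Core histone values after H2O2 were less negative in H4KQ than in NSY429, though no gene passed the test. In H4KQ the 8 core rows averaged -0.77 ± 0.10 on an array (SD, n = 3), and in NSY429 -1.43 ± 0.09 (SD, n = 3). HHT2 was missing on NSY429 array 3, so the mean of that array covers fewer rows. Every core row had a less negative mean in H4KQ, and 7 of them did not overlap between the strains, all but HTA2. Both strains carry 1 H3-H4 pair, so the HHT1 and HHT2 rows, like the HHF1 and HHF2 rows, do not stand for separate genes here. Among all genes 13.3% lay above without overlap. HHO1 lay below, at -0.55 and -0.80 in H4KQ and -0.25, -0.42 and 0.17 in NSY429. The SD of all log2 values was 0.815 to 1.14 on the H4KQ arrays and 0.909 to 1.16 on the NSY429 arrays. The part of this spread in the core values was not tested.

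For H4, HHF1 was at -0.70, -0.66 and -0.27 in H4KQ, against -1.28, -1.69 and -1.15 in NSY429, a difference of 0.83 ± 0.25 (SE). HHF2 was at -0.58, -0.61 and -0.28 in H4KQ, against -1.06, -1.53 and -1.19 in NSY429. For H3, HHT1 was at -0.01, -0.08 and 0.68 in H4KQ, against -0.55, -0.99 and -0.33 in NSY429, and HHT2 at -0.22, -0.09 and -0.05, against -0.81 and -1.13. Both H3 and H4 are carried by the plasmid in these strains. The H2A and H2B genes, at their own loci, had differences of 0.23 to 0.59. HTA1 was at -1.50, -1.28 and -1.62 in H4KQ, against -1.88, -2.14 and -2.16 in NSY429, and HTB1 at -1.04, -0.96 and -0.88, against -1.65, -1.44 and -1.40. HTZ1 overlapped, with -0.52, -0.62 and -0.65 in H4KQ and -0.80, -0.76 and -0.50 in NSY429.

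After adjustment over all genes no histone gene was called, with the lowest adjusted p at 0.21 for HHF1. Of the 10 rows 6 had an unadjusted p under 0.05, all of them core histone rows with higher values in H4KQ. The H3 rows, and the H4 rows, are not separate genes in that count. In this comparison of 3 arrays with 3, 0.0589% of 5091 genes were called, and other settings called none of the 10 histone genes either. Of the G1/S, G2/M and M/G1 genes, none was called, and their medians were 0.14, 0.10 and 0.08, beside 0.68 for the core genes and 0.04 over all genes. The regulators and the chaperones had no call either. HHO1 lay below without overlap, as did 11.3% of all genes.

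**Figure D2:**
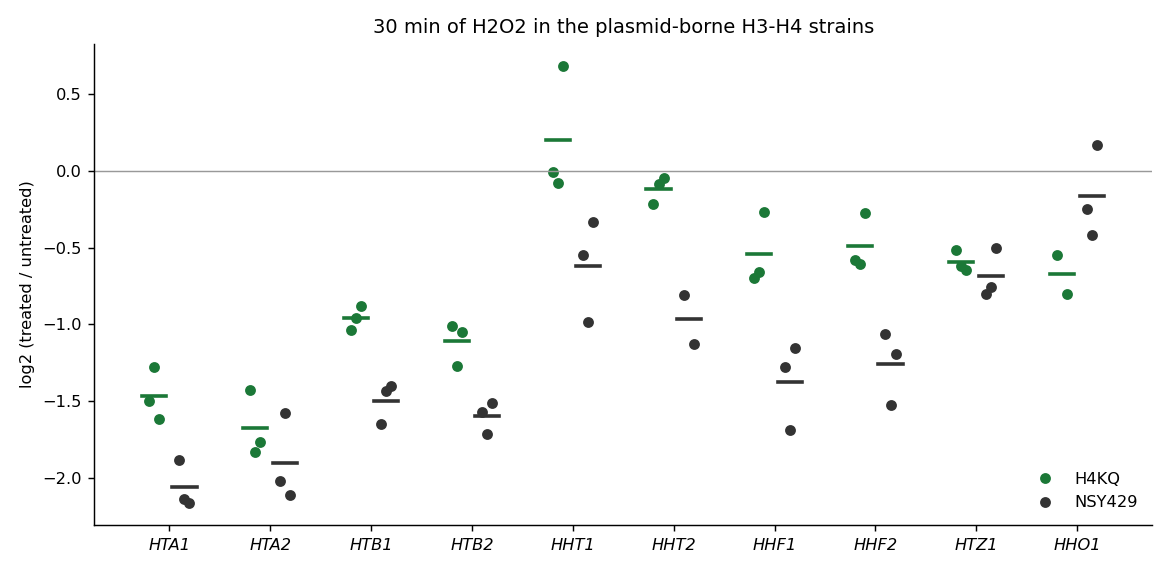
Log2 ratios at 30 min of 0.4 mM H2O2 in H4KQ and NSY429 for each histone gene, 1 point per array, bars at the means. H4KQ points lie above those of NSY429 without overlap for HTA1, HTB1, HTB2, HHT1, HHT2, HHF1 and HHF2, and below for HHO1.

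NSY429 itself showed the histone response. Of the 10 histone rows 8 were called lower at a false discovery rate of 0.01. Over all 5091 genes tested 23.9% were called, 12.5% as lower. With 1 H3-H4 pair in the strain, the HHT1 and HHT2 rows, like the HHF1 and HHF2 rows, do not count separate genes. HTA1 averaged -2.06 ± 0.16 (SD, n = 3) and HHF1 -1.37 ± 0.28 (SD, n = 3). HHT1, at an adjusted p of 0.0452, and HHO1, at 0.501, were not called, and the calls of HHT2 and HTZ1 were lost when any 1 of the 3 NSY429 arrays was left out. Set against the BY4741 wild type, NSY429 gave less negative values for all 8 core rows, by 0.37 for HHT2 up to 1.03 ± 0.31 (SE) for HHF2, but none was called (lowest adjusted p 0.105, for HHT1). In that comparison 0.774% of 5170 genes were called and 3 histone rows had an unadjusted p under 0.05, HHT1, HHF1 and HHF2. HHT1 and HHF2 lay above all wild-type arrays, as did 1.62% of all genes. Strain background, medium and the number of H3-H4 loci change together between these strains and cannot be told apart. The array SDs differed as well, 0.909 to 1.16 in NSY429 and 0.991 to 1.44 in wild type, and their part was not tested.

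Before any stress, all 3 arrays put H2A and H2B lower in rpd3Δ than in wild type and HHO1 higher, but no gene passed the test. HTA1 was at -0.50, -0.42 and -1.23 as rpd3Δ over wild type on arrays 1, 2 and 3, and HTA2 at -0.50, -0.32 and -0.48. HHO1 was at 0.68, 0.85 and 0.10. H4 split by array, with HHF1 at -0.39 and -0.26 on arrays 1 and 2 and 0.64 on array 3, and HHT1 split likewise, at -0.49, -0.36 and 0.17. Array 3 carries the opposite dye orientation, and across all genes it correlated with the others at r = 0.38 and 0.375, against 0.815 between arrays 1 and 2. On array 3 the rows of the 2 H3 genes were far apart, at 0.17 for HHT1 and -1.75 for HHT2.

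No histone gene was called from the 3 arrays (lowest adjusted p 0.12, for HTA1), 5 had an unadjusted p under 0.05, and 3.5% of 4426 genes were called. The outcome turns on array 3. Without it, HTA1, HTA2 and HHT1 were called lower (-0.46, -0.41 and -0.43) and HHO1 higher (0.76), with adjusted p from 0.0199 to 0.0457, but 29.6% of all genes were then called, so 4 of 10 is not far from the background. With dye orientation as a covariate 7 genes were called, HTA1, HTA2, HTB1, HTB2, HHT2 and HTZ1 lower and HHO1 higher, where 44.3% of all genes were. Array 3 is the sole array of its orientation, so the covariate takes up its departure and the error comes from arrays 1 and 2 alone. Added to the difference at 30 min of H2O2, the untreated ratios of arrays 1 and 2 put HTA2 at -1.25 and HTA1 at -0.92 in stressed rpd3Δ cells relative to stressed wild type, HHO1 at 0.36 and HTZ1 at 0.08. With the mean of all 3 arrays they were -1.28 for HTA2, -1.17 for HTA1, 0.14 for HHO1 and -0.18 for HTZ1, so the HHO1 value depends on array 3 and the sign of HTZ1 turns with it. These sums join separate arrays and carry no test.

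**Figure D3:**
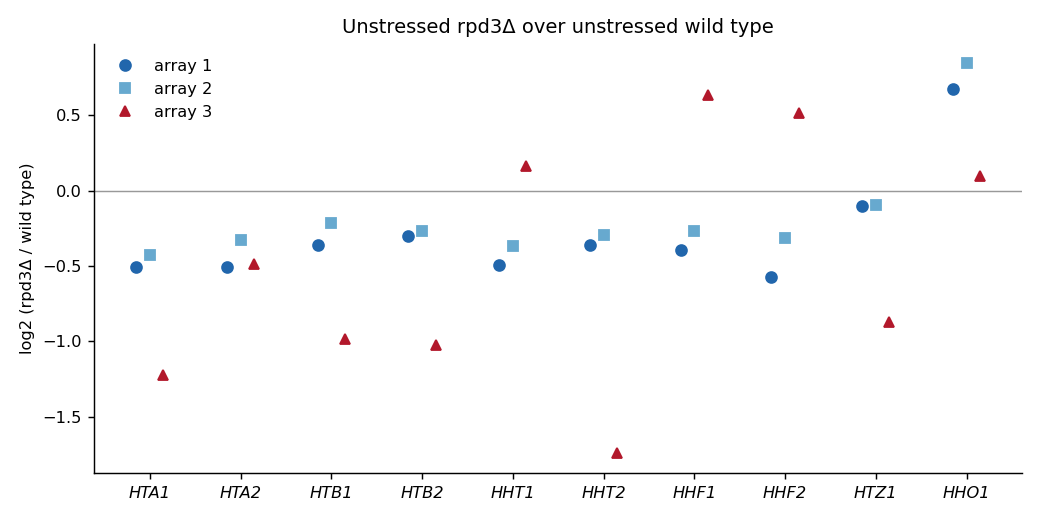
Log2 ratios of untreated rpd3Δ over untreated wild-type cells for each histone gene on the 3 arrays. Arrays 1 and 2 lie close together for every gene, while array 3 is apart for all but HTA2.

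All 9 histone genes tested averaged below 0 in heat-shocked wild type, and 4 were called lower. The core genes had a median of -0.595. By the F test over times all 9 had an unadjusted p under 0.05, as did 1905 of 4547 genes, with adjusted p up to 0.0809. HTA1, over 5, 15, 30 and 60 min of the first wild-type course, was at -0.43, -1.68, -1.69 and -0.94, and over 5, 10, 20, 30 and 60 min of the second at -0.34, -0.05, -1.01, -1.09 and -0.55. The lowest values came at 15 to 30 min and those at 60 min were nearer 0. By the F test over times, 4 of 9 genes tested were called, all lower, where 21.3% of 4547 genes were called, 12% as lower. These were HTA1 at -0.87 ± 0.12 (SE, mean over times, adjusted p = 0.00185), HTA2 at -1.05 ± 0.14 (adjusted p = 0.00144), HTZ1 at -0.85 ± 0.12 (adjusted p = 0.00332) and HTB2 at -0.27 ± 0.12 (adjusted p = 0.00228). Scaled to one MAD, 2 were called, HTA2 and HTZ1, beside 12.7% of all genes, and HTA1 (adjusted p = 0.0103) and HTB2 (0.0119) missed the threshold of 0.01. HTB2 carries an odd value, 1.53 at 20 min of the second course, where HTB1 was at -1.07. Without that array its mean was -0.63 and its adjusted p 0.00585. HHO1 was measured on 10 of 18 arrays and was not tested. G1/S genes fell too, 5 of 10, for example RNR1, the ribonucleotide reductase, at -1.75, with 2 of 9 G2/M genes and none of the M/G1 genes, regulators or chaperones. The part of cell cycle position here was not tested.

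In rpd3Δ all 71 core values of the heat shock courses lay below 0, against 59 of 71 in wild type. These values pool the core genes and the times of 2 courses and are not replicates, and the share over all genes was not counted. HTA1 in rpd3Δ was at -0.91, -0.95, -1.10 and -1.38 in the first course and -1.38, -0.47, -0.76, -0.47 and -1.28 in the second. At 60 min its values of -1.38 and -1.28 compare with -0.94 and -0.55 in wild type, and for HTB1 -1.48 and -1.54 in rpd3Δ compare with -0.85 and 0.10. The core mean at 60 min was -1.45 and -1.48 in rpd3Δ, and -0.85 and -0.30 in wild type. Its difference was -0.60 in the first course and -1.18 in the second. In the second course the labelled temperature of the untreated cells differed between the strains, so strain and starting temperature cannot be told apart there. The matched counts and tests that follow pool both courses, and the part of starting temperature in them was not tested. HTB1 and HTB2 were lower in rpd3Δ in 9 of 9 matched arrays and HHF2 in 7 of 7, while HTA1 and HTA2 were lower in 5 of 9. How many of all genes were lower in every matched array was not counted. No histone gene was called by the F test over times (lowest adjusted p 0.088, for HTB2, with 1.54% of all genes called), and 2 had an unadjusted p under 0.05, HTB2 and HHT1. A moderated test of the mean over times called HTB2 at -0.86 ± 0.16 (SE, adjusted p = 0.00856) and HHF2 at -0.75 ± 0.20 (SE, adjusted p = 0.0477), where 10.7% of all genes were called. Without the odd HTB2 array HTB2 was not called by that test, with a difference of -0.55 and an adjusted p of 0.0759, and HHF2 had an adjusted p of 0.0463.

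In NaCl 1 histone gene was called, HTA2. HHF1 in rpd3Δ was at -0.81, -0.40 and -0.90 at 15, 30 and 90 min of the first course, and at -0.27, -0.76 and -1.09 at 30, 45 and 60 min of the second. In wild type it was at -0.34, 0.34, -0.86 and -0.59 at 15, 30, 60 and 90 min, and at -0.34, -0.77 and -1.10. The strains nearly coincided in the second course and differed in the first. HTA2 in wild type averaged -0.70 ± 0.09 (SE, adjusted p = 0.00382), where 27.4% of 5003 genes were called, 14.6% as lower. That call was lost without the arrays at 60 min of the first course (adjusted p = 0.0127), on which HTA1 in wild type, at 0.96, and HHT2 and HHF2 in rpd3Δ, at 1.03 and 1.00, stand against HTA2 at -1.16 in wild type and HHT1 at -0.73 in rpd3Δ. HHO1 was at -0.71, -1.73, -1.42 and -0.58 in the first rpd3Δ course and -1.08, -0.78 and -0.62 in the second, and in wild type at -0.39, -1.37, -1.40 and 0.15, and -1.13, -1.24 and -0.51. It averaged -0.74 ± 0.16 (SE) in wild type with an adjusted p of 0.02, which misses the threshold of 0.01. With the number of the course as a block it was called, at -0.67 with an adjusted p of 0.00268, beside 27% of all genes. HIR1 fell in wild type, at -1.13, and HPC2, also of the HIR complex, at -0.30, with 5 of 10 G2/M genes, 1 of 12 G1/S genes and none of the others. Between rpd3Δ and wild type no histone gene was called in NaCl and none had an unadjusted p under 0.05, with 3.44% of all genes called (172, or 103 with the block).

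After the shift back from 37 to 25°C no histone gene passed the test. At 40 min HTA1 was at -0.01 and -0.23 in rpd3Δ, and at -1.21 and -0.67 in wild type. HHF1 was at -0.47 and -0.45 in rpd3Δ, and at -2.06 and -1.05 in wild type. The core mean at 40 min was 0.07 and -0.29 in rpd3Δ, against -1.22 and -0.65 in wild type. At 10 min it was -0.38 and -0.48, against -0.10 and 0.12, so the sign of the difference turned in both courses. Some of these arrays lack values for a core gene. The wild-type array at 40 min of the first course stood apart. Its SD over all genes was 1.19, against 0.363 to 0.745 on the other arrays of this shift. The core difference at 40 min was 1.28 in that course and 0.36 in the second. HHO1 was higher in rpd3Δ than in wild type in 7 of 7 matched arrays, as were 6.26% of the 3322 genes measured on all of them. It was at -0.04, 0.08, 0.87, 0.63, -0.13, 0.74 and 0.47 in rpd3Δ and at -0.19, -0.27, -0.80, -0.52, -0.26, -0.51 and -0.31 in wild type, a mean difference over times of 0.81 ± 0.12 (SE). Its lowest rpd3Δ value, -0.13, lay above its highest wild-type value, -0.19, a pattern held by 0.602% of those genes. By the F test over times neither comparison called a histone gene. For the wild-type change limma called 0 of 5330 genes, with 1476 at an unadjusted p under 0.05 and 0 to 460 called under other settings, the 460 with the course number as a block, none of them a histone gene. For the strain difference it called 0 of 5330, with 308 at an unadjusted p under 0.05 and 0 to 3 under other settings. The adjusted p of HHO1 in the difference was 0.849. At an unadjusted p under 0.05 there were 4 histone genes in wild type, HTA1, HHF1, HHF2 and HHO1, and 1 in the difference. HHT2 was measured on 8 of 14 arrays and was not tested.

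**Figure D4:**
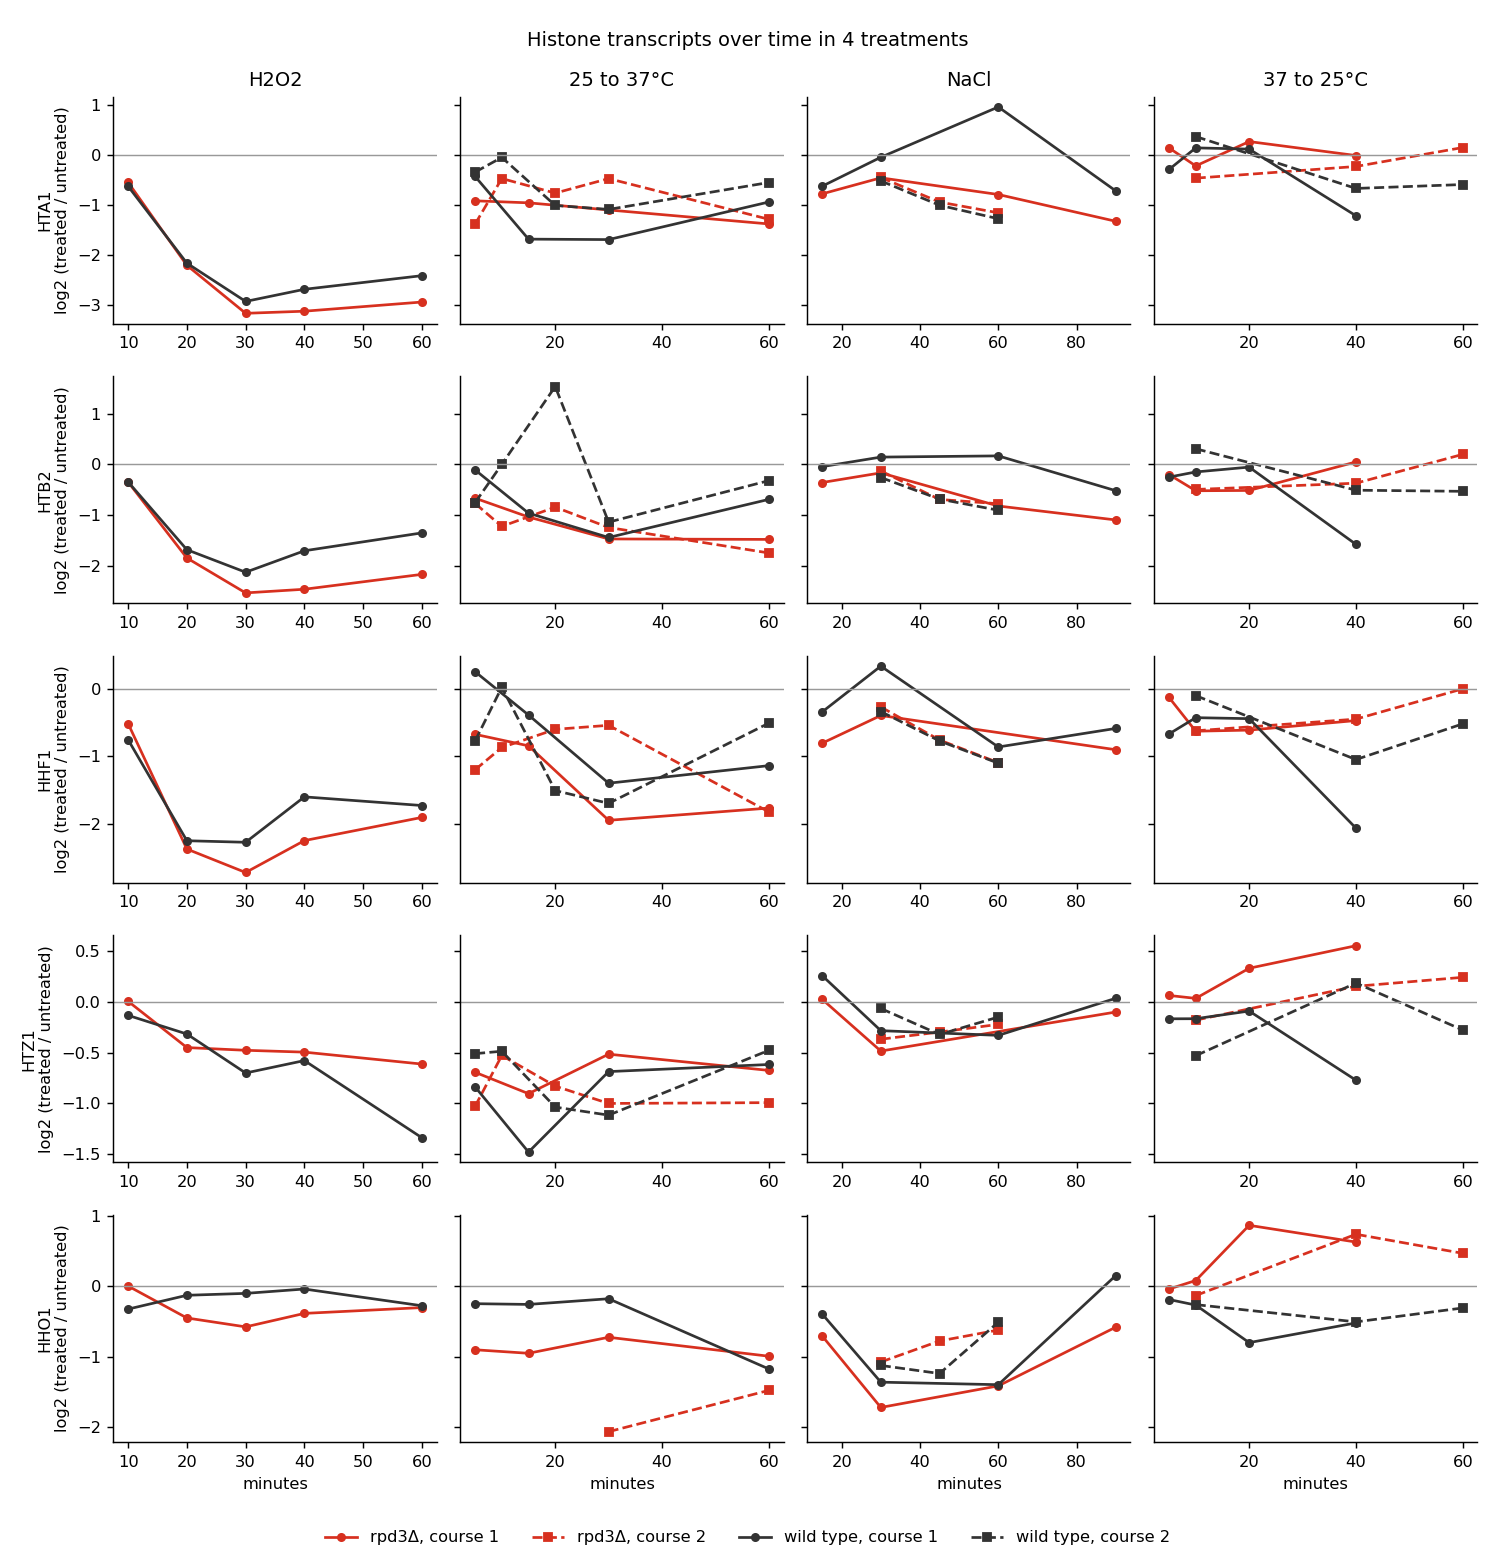
Log2 ratios of treated over untreated cells against minutes of treatment for HTA1, HTB2, HHF1, HTZ1 and HHO1 (rows) in H2O2, the shift to 37°C, NaCl and the shift to 25°C (columns), with a line per time course, rpd3Δ in red and wild type in black. The core genes HTA1, HTB2 and HHF1 reach their lowest values in H2O2, and HTZ1 in the shift to 37°C. The lowest HHO1 value, -2.07, is on 1 rpd3Δ array of the shift to 37°C, while in wild type the lowest is -1.40 in NaCl. rpd3Δ lies below wild type at 60 min of the shift to 37°C for HTB2, and above it for HHF1 at 40 min of the shift to 25°C. In the second course of the shift to 37°C the labelled temperature of the untreated cells differed between the strains.

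In heat shock with TSA, core histone values lay mostly below those with DMSO. HTA1 was at -0.83, -1.23 and -2.09 with TSA at 5, 15 and 30 min, against -0.61, -0.73 and -1.96 with DMSO. HHT1 was at -0.84, -1.16 and -1.98 with TSA, against -0.34, -0.67 and -1.86 with DMSO. TSA values were below DMSO values for 8, 8 and 7 of 8 core genes at the 3 times, where 54.8%, 51.4% and 53.6% of all genes were. The core mean differed by -0.33, -0.28 and -0.21. There is 1 array per treatment and time, and all genes of a time share those 2 arrays, so the differences have no replicate check.

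In rpd3Δ cells with a plasmid, the deacetylase-dead allele rpd3H150:151A gave values near those of RPD3 at 20 min of heat shock, with HTA1 at -1.15 against -1.07, HHT1 at -0.10 against -0.01 and HHF1 at -0.98 against -1.26. At 30 min of H2O2 the allele gave -3.19 and -3.12 for HTA1 and HTA2, against -2.56 and -2.49 with RPD3, and 7 of 8 core genes were lower. The share of all genes lower there was not counted. HHT2 was at -1.43 against 0.06, but on the same RPD3 array HHT1 was at -1.19, and HTZ1 at -1.71 on it is the lowest HTZ1 value of any array. The array with the empty plasmid, at 20 min of heat shock, had HHT1 at 1.60 and HHF2 at 1.85 while HHT2 was at -0.60. None of these single arrays was tested.

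**Figure D5:**
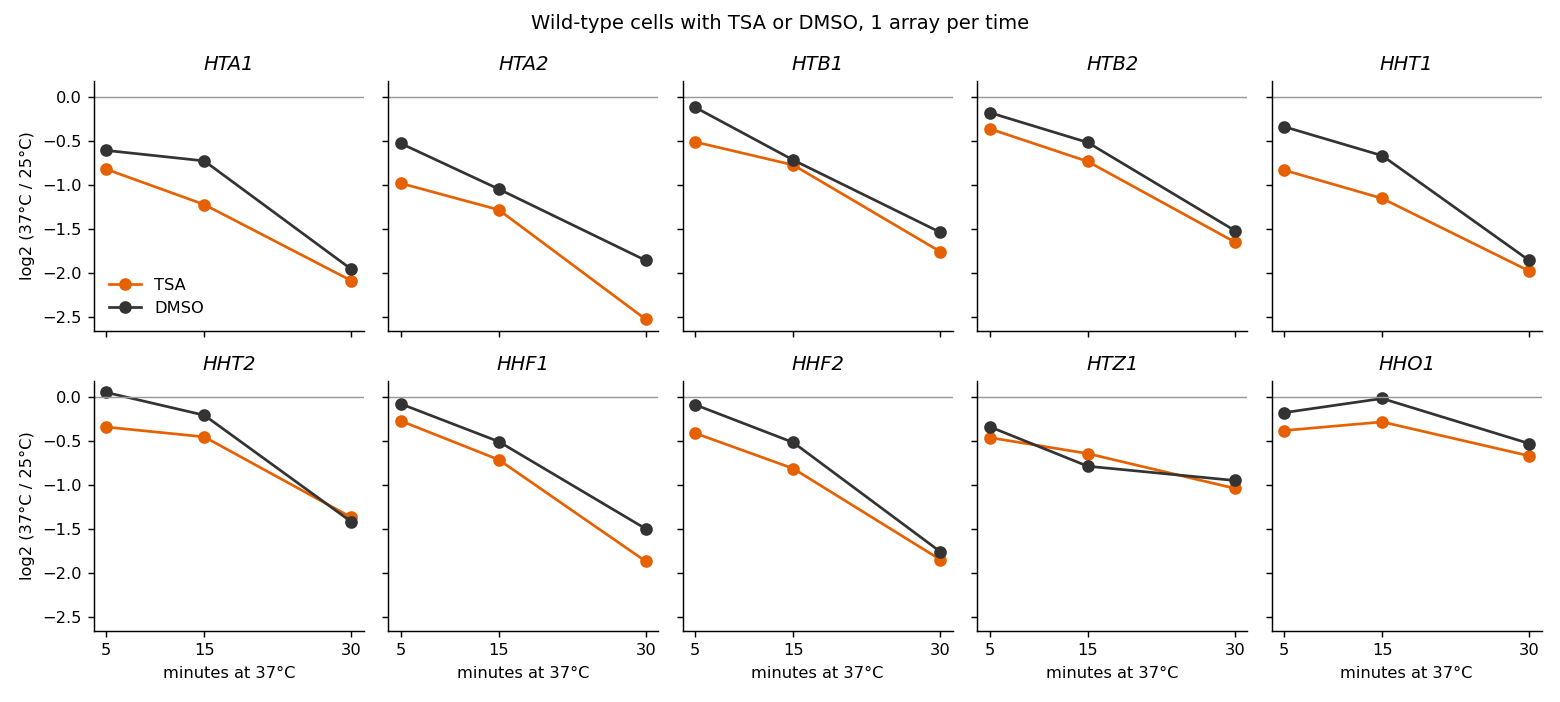
Log2 ratios of wild-type cells at 37°C over 25°C with TSA or DMSO against minutes, 1 panel per histone gene and 1 array per point. TSA points lie below DMSO points for the core genes except HHT2 at 30 min.

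Outside the 10 genes, few followed the core histones over all 106 treated arrays. The non-member most like the mean of the 8 core genes was HYP2, the translation factor eIF5A, with r = 0.801 over 105 arrays, followed by YAR061W (0.775), ALD6 (0.761), ARB1 (0.759), RPS10A (0.747), RPS7A (0.74), RPL33A and ENV7 (0.739 each), RPL7B (0.736) and REB1 (0.735). RPS10A, RPS7A, RPL33A and RPL7B encode ribosomal proteins. The median r over 5189 genes was -0.04. Without the H2O2 arrays the values were lower. On the arrays of the other treatments r was 0.197 for HYP2, 0.0555 for ALD6 and 0.441 for RPL7B. HTZ1 had r = 0.535 with the core mean and HHO1 r = 0.077. The arrays share treatments and strains, and these values are a description.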

How the data were processed

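The authors deposited log2 ratios, 1 column per array, and the background correction, the normalization and the filter behind empty cells are not given in the sources used here. Ratios were used as deposited. Arrays of opposite dye correlated positively (H2O2 r 0.691 to 0.96, NaCl 0.375 to 0.853), so none was turned. The 37 to 25°C arrays correlated with heat shock arrays at -0.613 to 0.172, and the labels' channels were kept because the shifts are opposite. Among themselves, the 37 to 25°C arrays of a strain correlated at -0.164 to 0.806.

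Genes measured on at least 80% of a fit's arrays were fitted by least squares with limma 3.58.1 (R 4.3.3) moderated variances and Benjamini-Hochberg adjustment over all genes, at 0.01 for wild-type changes (and NSY429) and 0.05 for strain differences. The 30 min H2O2 arrays of 7 BY4741 strains (27) shared 1 fit, NSY429 and H4KQ (6) another, and both (33) a further one. Time courses were tested by F over times. Missing values were dropped. The gene lists, the rule for named genes (10 members, 10 most correlated genes, list genes, deleted genes) and the members were chosen with earlier results of these data known. Labels do not say that replicates are separate cultures, so p-values measure the spread between arrays. The pho23Δ and wild-type arrays of equal number deviated together (r 0.114 to 0.235), as did rpd3Δ and wild-type arrays of 1 course (heat shock 0.179 to 0.456, NaCl 0.15 to 0.228, 37 to 25°C 0.56 to 0.643, with 2 courses and so 1 independent value per time), so the number was also fitted as a block. Alternatives were median centring, one MAD, no filter, dye orientation, the replicate block, a moderated test of the mean over times and fewer arrays, and leaving out arrays that stood apart was chosen after seeing the data. Lists held regulators of histone genes, chaperones and G1/S, G2/M and M/G1 genes. Fits were tested on simulated data. Tools: Python 3.11.15, numpy 2.4.6, pandas 2.3.3, scipy 1.17.1, matplotlib 3.10.9. Array number limits precision. Promoter and protein sequences are not printed here, and gene names come from the RefSeq table, which names 5832 rows.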

Additional observations from a re-analysis of the deposited data

Results flagged for a closer look

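HTB2 in array 4 of ume6Δ at 30 min of H2O2, at -0.137, lay far from the other 3 ume6Δ arrays, with a gap that took 0.835 of the range of the 4 values. It was the 1 such case among 20 sets of 4 to 8 arrays checked, where chance alone gives about 1 in 20.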

How the results depend on the processing

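No direction reversed for a called gene. The number of histone genes called, of 10, moved as follows, and the cause was not tested. With arrays scaled to one MAD it was 9 for rpd3Δ against wild type in H2O2 (0 as deposited), 3 for pho23Δ against wild type (1), 8 for msn2Δmsn4Δrpd3Δ against msn2Δmsn4Δ (0), 2 for wild type in heat shock (4) and 0 for wild type in NaCl (1). With dye orientation as a covariate it was 7 for untreated rpd3Δ over wild type (0) and 0 for pho23Δ. With only wild-type arrays 1 to 3 it was 0 for pho23Δ. The moderated test of the mean over times gave 2 for rpd3Δ against wild type in heat shock (0), 1 without the odd HTB2 array, and 3 for wild type in NaCl. Without the arrays that stood apart, chosen after seeing the data, it was 1 for rpd3Δ in H2O2 (HHT2), 1 for msn2Δmsn4Δrpd3Δ (HHT1) and 0 for wild type in NaCl. Leaving out 1 array at a time gave 0 to 4 for untreated cells, the 4 without array 3, 0 to 1 for rpd3Δ in H2O2, the 1 (HHO1, adjusted p = 0.0446 by limma) without wild-type array 8, and 0 to 1 for pho23Δ.

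With the replicate number as a block, pho23Δ had 0 calls and wild type in NaCl 2, HHO1 being added (adjusted p = 0.00268 by limma), and 8 of 10 were called for wild type in H2O2 and 6 for NSY429. The other comparisons kept their number of calls. Arrays of equal number deviated together in every pair for pho23Δ and wild type and in the time courses, but in not every pair for the other strains. Counts of all genes called moved over 1.5 times under some setting, to 93 to 1959 for untreated cells (155 as deposited), 650 to 1446 for rpd3Δ (1266), 430 to 1180 for pho23Δ (954), 4 to 42 for rco1Δ (23), 1 to 203 for ume6Δ (37) and 92 to 650 for msn2Δmsn4Δ (253) against wild type in H2O2. They were 193 to 656 for msn2Δmsn4Δrpd3Δ against msn2Δmsn4Δ (489) and 2 to 125 against rpd3Δ (14), 558 to 1954 for NSY429 (1216), 0 to 62 for H4KQ against NSY429 (3) and 12 to 96 for NSY429 against wild type (40). In heat shock they were 579 to 1706 for wild type (967) and 0 to 485 for the strain difference (70), and 0 to 637 for that difference in NaCl (172). The number of arrays, 3 to 8 per group at 30 min of H2O2, limits what can be told apart.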
